A study of Rattus norvegicus with 36 samples.

Results

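The microRNAs (miRNAs) of the nucleus accumbens (NAc) were compared between rats that had self-administered heroin and rats that had self-administered saline. The comparison takes the 6 heroin and the 6 saline libraries of the NAc, 12 of the 36 libraries of the series, and every annotated rat miRNA name in the table of read counts. Those are 706 of 861 names, and the other 155 are predicted names. The rats were male Sprague Dawley, 8 weeks old on arrival, with no transgene or deletion named. In the heroin group each infusion delivered 0.075 mg/kg through a jugular catheter, in daily sessions of 6 h on 10 days. The saline group had the same surgery and took saline for 10 days, and tissue was frozen within 60 min after the final session in both groups. The NAc was taken as a piece of tissue, so each library mixes neurons, glia, vessel cells and blood. In such bulk RNA, fewer cells of a type and less RNA per cell cannot be told apart. The labels call the libraries biological replicates and give numbers 1 to 6 to heroin and 7 to 12 to saline, so the numbers pair no heroin library with a saline library.

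A miRNA is a short RNA cut from a hairpin precursor. Either arm of the hairpin, called 5p or 3p, can be loaded into an Argonaute protein, where the seed (bases 2 to 8) pairs with messenger RNAs and lowers their translation or stability. miRNAs that share a seed form a family and can bind the same sites. The NAc, in the ventral striatum, is made up mainly of GABAergic spiny neurons that receive dopamine and carry opioid receptors, and it is a main site at which opioid reward is studied.

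The sequences of 10 names are given first, because the families and arms compared further on are read from them. They were chosen, with their values seen, from the names with the smallest p-values, and miR-6329, miR-99b-3p and others of that kind are not shown. Mature sequences came from RefSeq (assembly GRCr8), which held 642 of the 706 names. They are written 5′ to 3′ with the seed in capitals. The first 5 stood higher in the heroin libraries and the last 5 lower, none past the adjusted threshold.
let-7i-5p: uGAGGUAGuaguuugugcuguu
miR-708-3p: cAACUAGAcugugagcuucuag
miR-129-5p: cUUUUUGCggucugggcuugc
miR-148a-3p: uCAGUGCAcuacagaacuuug
miR-770-3p: gUGGGCCUgacguggag
miR-337-3p: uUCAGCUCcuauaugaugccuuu
miR-667-3p: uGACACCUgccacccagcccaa
miR-107-3p: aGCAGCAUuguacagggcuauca
miR-369-3p: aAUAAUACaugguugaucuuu
miR-361-5p: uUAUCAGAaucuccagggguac
No seed was shared among these 10. In GRCr8, let-7i-5p lies at chr7:60527935-60527956 on the minus strand, outside any annotated host gene. miR-708-3p lies at chr1:160011214-160011235 within the gene Tenm4, and miR-107-3p at chr1:241750431-241750453 within Pank1. miR-361-5p lies at chrX:82438506-82438527 within Chm. miR-770-3p, at chr6:134298129-134298145 within Meg3, and miR-337-3p, miR-667-3p and miR-369-3p belong to the imprinted Dlk1-Dio3 region.

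Relatives are shown for the families of miR-107-3p and miR-148a-3p, because seed sums are compared further on. miR-103-3p carries the seed of miR-107-3p, and miR-148b-3p and miR-152-3p carry that of miR-148a-3p.
miR-103-3p: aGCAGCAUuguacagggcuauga
miR-148b-3p: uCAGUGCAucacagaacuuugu
miR-152-3p: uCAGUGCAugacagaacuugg

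Some names in the table repeat the counts of another name. A pair was taken as repeated where the counts differed by at most 5% and the mature sequences shared a run of at least 16 bases on either strand. Where a sequence was missing, the limit was 1%. Another 4 pairs within 5% had unrelated sequences and were not taken. By this rule 29 pairs repeated, so their related sequences are part of the rule and not a separate result. Of the 29, 27 were reverse complements of each other over that run. The capitals mark the shared run in 3 such pairs, in which the second name is the antisense of the first.
miR-9a-5p: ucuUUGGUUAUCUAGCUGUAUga
miR-9b-3p: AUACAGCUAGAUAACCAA
let-7f-5p: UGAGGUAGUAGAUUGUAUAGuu
miR-3596d: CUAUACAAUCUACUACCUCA
miR-1-3p: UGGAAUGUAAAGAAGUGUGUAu
miR-3571: UACACACUUCUUUACAUUCCAua
Over the NAc libraries, the counts of miR-9a-5p and miR-9b-3p differed by 0.197% of their sum. Those of let-7f-5p and miR-3596d differed by 1.54%, and those of miR-1-3p and miR-3571 by 0.0422%. Of 41 reverse-complement pairs with at least 500 counts under each name in the NAc libraries, 22 differed by less than 1%. The pair miR-129-1-3p and miR-129-2-3p repeated each other on the same strand. Reads of a repeated pair cannot be told apart in this table, and the second names of the 29 pairs held 19.0% to 24.7% of the counts of a NAc library. Below, such a pair is described once, under the first name, except where a count over names holds both.

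The NAc libraries held 5.89 to 24.8 M counts (M, 1e+06; median 12.31 M) and 557 to 608 annotated names with at least 1 count. Heroin and saline libraries did not differ beyond the spread between replicates in total counts (exact permutation test, two-sided p = 0.857, n = 6 per group) or in names detected (exact permutation p = 0.216, and 0.433 after Benjamini-Hochberg adjustment over these 2 measures). The 14 names of a list of neuron-enriched miRNAs summed to 315739 to 346959 CPM (counts per 1e+06 counts of the library) in heroin libraries and 326945 to 351959 CPM in saline libraries. None of the lists used here separates the NAc from other brain regions. The most abundant name was miR-9a-5p, known for its part in neurogenesis, at 14.7% ± 2.07 of the counts (SD, n = 12). Percentages and CPM are over library totals that hold the repeated counts under both names of a pair. miR-124-3p, often the leading miRNA of neurons, stood at 368 to 946 CPM in heroin libraries and 487 to 1335 CPM in saline libraries.

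A set of 3 libraries stood apart from the other 9 on the first principal component of log2 CPM, which took 31.7% of the variance. They were heroin replicate 2 (score 16.6), saline replicate 7 (9.49) and saline replicate 9 (8.28), and they were also the 3 libraries with the fewest counts, at 5.89, 6.08 and 7.81 M. The hepatocyte miRNA miR-122-5p was at 97.0, 92.0 and 49.8 CPM in these 3 libraries and at 0.586 to 2.99 CPM in the other 9. The epithelial miR-200b-3p was at 115, 109.9 and 80.6 CPM against 5.85 to 19.9 CPM, and the Hox-cluster miR-10b-5p at 81.1, 65.3 and 68.0 CPM against 8.29 to 26.7 CPM. These names were picked from those that weigh most on the component that sets the libraries apart. Of 444 annotated names tested, second names of repeated pairs left out, 33 were higher and 8 lower in all 3 libraries than in any of the other 9. The 33 count miR-122b, at 42.9 to 84.8 CPM against 0.502 to 2.53 CPM, beside miR-122-5p. The neuronal miR-7a-5p went the other way, at 25339.5, 47764 and 42062 CPM against 67491 to 119338 CPM. Since the 3 libraries are spread over both groups, the comparison is also given without them where its counts moved. The part of these miRNAs in any result was not tested.

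**Figure D1:**
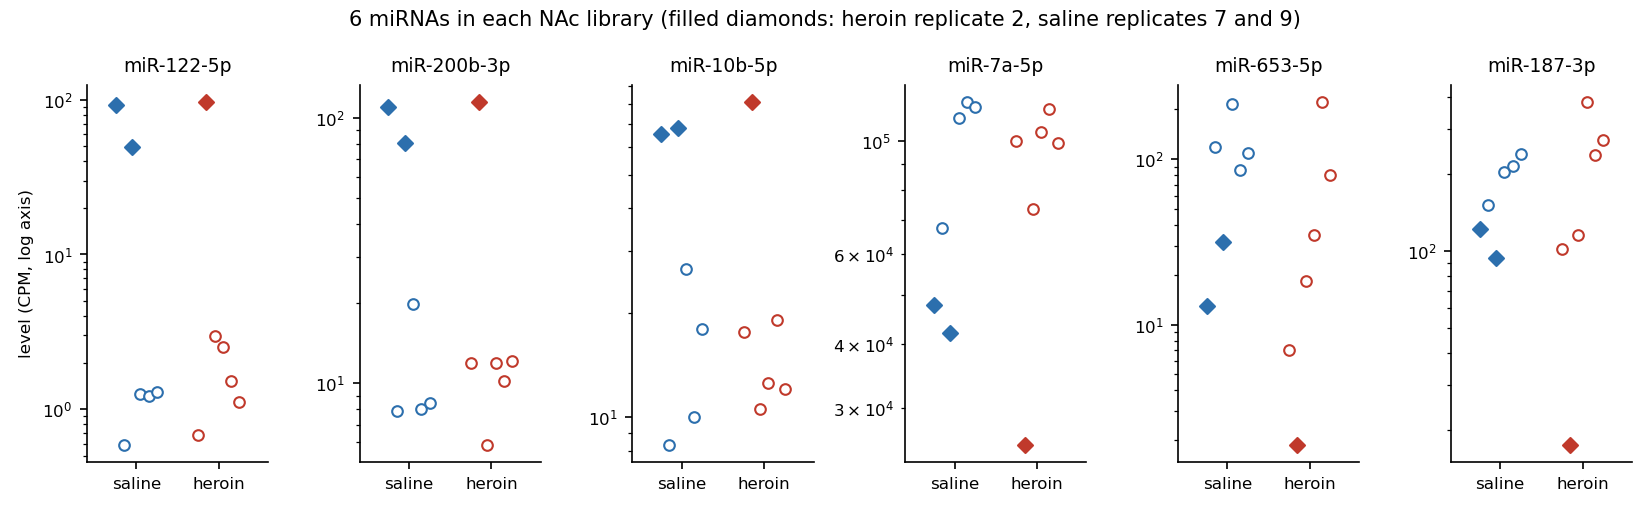
Levels of 6 miRNAs (CPM, log axis) in the 6 saline (blue) and 6 heroin (red) NAc libraries, 1 point per library, with heroin replicate 2 and saline replicates 7 and 9 as filled diamonds. miR-122-5p, miR-200b-3p and miR-10b-5p are high in all 3 of those libraries, and miR-7a-5p is low in all 3. miR-653-5p and miR-187-3p are lowest in heroin replicate 2.

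No annotated miRNA of the NAc differed between heroin and saline past an adjusted p of 0.05 in edgeR's quasi-likelihood test: 0 of 480 names tested (0%), with a smallest adjusted p of 0.686. At an unadjusted p under 0.05 stood 30 names (6.25% of those tested), all annotated, of which 19 were higher after heroin (3.96%) and 11 lower (2.29%). The 19 count the antisense pair miR-1-3p and miR-3571 under both names. DESeq2, limma-voom and limma on log2(TPM + 1) also called 0 names, with 33, 18 and 35 at an unadjusted p under 0.05. In no name did the CPM of the 6 heroin libraries lie wholly above or wholly below that of the 6 saline libraries (0%). The values that follow therefore describe where the libraries stood and how wide the intervals were. The p-values measure only the spread between these libraries, since the labels do not say how animals correspond to libraries.

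Among the names with higher values after heroin, let-7i-5p had the smallest p. It belongs to the let-7 family, which promotes differentiation and has been reported in the mouse to repress the mu opioid receptor transcript. Its level was 36279 CPM in the lowest, 44163 in the median and 51347 in the highest heroin library, against 29046, 35327 and 39343 CPM after saline. All 6 heroin libraries lay above the saline median, 5 of them above every saline library, and heroin replicate 3 lay within the saline range. The log2 fold change was 0.48 ± 0.16 (SE; 95% interval 0.13 to 0.83; edgeR adjusted p = 0.686). miR-129-5p, a neuronal miRNA linked to excitability and synaptic scaling in rodents, ran from 16179 through 21617 to 29150.3 CPM after heroin and from 13681 through 16609 to 19392 CPM after saline (0.58 ± 0.22). Its 2 lowest heroin libraries lay under the saline median, and its 3 highest lay above every saline library.

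A wider spread was seen in other abundant names. miR-148a-3p, a miRNA of many tissues known in human cells to target DNA methyltransferases, was at 23489, 63139.5 and 114378 CPM (lowest, median and highest) after heroin and at 20950.2, 35998 and 57114 CPM after saline. Heroin replicate 4 was the highest and heroin replicate 3 the lowest heroin library, and the latter lay inside the saline range. The log2 fold change was 0.94 ± 0.37 with a 95% interval of 0.16 to 1.72 (edgeR adjusted p = 0.686). miR-708-3p, processed from within Tenm4, stood at 704, 2105 and 4148 CPM after heroin and at 1037, 1192 and 2267 CPM after saline (0.95 ± 0.35). Here the lowest of all 12 libraries was a heroin library, replicate 3, while the 5 others lay above the saline median. miR-151-3p was at 1065, 3103 and 5851 CPM against 1196, 1673 and 2627 CPM (0.99 ± 0.37), again with heroin replicates 3 and 4 at the ends.

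Of less abundant names, miR-770-3p from Meg3 was at 77.7, 184 and 376 CPM after heroin and at 86.3, 119 and 182 CPM after saline (log2 fold change 0.83 ± 0.33). miR-99a-5p and the opposite-arm product miR-99b-3p, of the family of miR-99 and miR-100, had log2 fold changes of 0.56 ± 0.23 and 0.60 ± 0.23. The muscle miRNA miR-1-3p ran from 11.03 to 30.2 CPM after heroin and from 9.57 to 17.0 CPM after saline (0.63 ± 0.26). miR-1-3p is known as a miRNA of heart and skeletal muscle, and its median here was 16.9 CPM after heroin against 13.7 CPM. The name miR-1b, which begins with the same 16 bases, held 85501 NAc counts against 2373 for miR-1-3p. The striated muscle list used below does not hold miR-1b. miR-6329 was at 9.89 to 39.1 CPM against 9.29 to 16.6 CPM (0.91 ± 0.34), and miR-3074 at 4.08 to 14.4 CPM against 5.68 to 7.90 CPM (0.66 ± 0.27). miR-3074 is the reverse complement of miR-24-1-5p over 20 bases. Their counts differed by 8.2%, past the 5% limit for a repeated pair, so it is kept as a name of its own. In each of the 6 names given a log2 fold change in this paragraph, the groups overlapped.

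Among the names with lower values after heroin, the smallest p belonged to miR-337-3p, at 0.34, 0.665 and 1.30 CPM after heroin and 0.969, 1.92 and 4.14 CPM after saline. These levels rest on few reads per library, and all 6 heroin libraries lay below the saline median. The log2 fold change was -1.22 ± 0.37, with a 95% interval of -2.02 to -0.42 (edgeR adjusted p = 0.686). miR-3072, also at a few CPM, had a log2 fold change of -1.16 ± 0.37. The remaining names had more reads. miR-667-3p was at 21.4, 32.9 and 47.3 CPM after heroin and at 43.7, 46.9 and 71.3 CPM after saline (-0.58 ± 0.20). Only heroin replicate 3 reached the saline range.

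miR-107-3p, whose host gene Pank1 makes the enzyme of the first step of coenzyme A synthesis, was at 43.1, 85.7 and 132 CPM after heroin and at 103, 137 and 208 CPM after saline. Its log2 fold change was -0.60 ± 0.23 (95% interval -1.09 to -0.12; edgeR adjusted p = 0.686), and 6 of 6 heroin libraries lay below the saline median. miR-103 and miR-107 have been reported in mouse cells to act on a splice form of the mu opioid receptor after morphine. miR-361-5p was at 44.4, 97.0 and 151 CPM against 101, 144 and 199.7 CPM (-0.53 ± 0.23). In the Dlk1-Dio3 region, miR-369-3p was at 60.3, 122 and 214 CPM against 152, 228 and 309 CPM (-0.70 ± 0.29), and miR-136-3p at 384, 619.7 and 845 CPM against 554, 855 and 1244 CPM (-0.39 ± 0.17). Heroin replicate 3 or 5 was the highest heroin library in both. miR-487b-3p (-0.45 ± 0.20), miR-539-3p (-0.68 ± 0.31), miR-874-3p (-0.63 ± 0.29) and miR-34c-3p (-1.19 ± 0.50) completed the 11 names under an unadjusted p of 0.05 in this direction. Next in order was miR-3557-3p (-0.60 ± 0.29), the antisense name of miR-378a-5p (-0.55 ± 0.28).

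**Figure D2:**
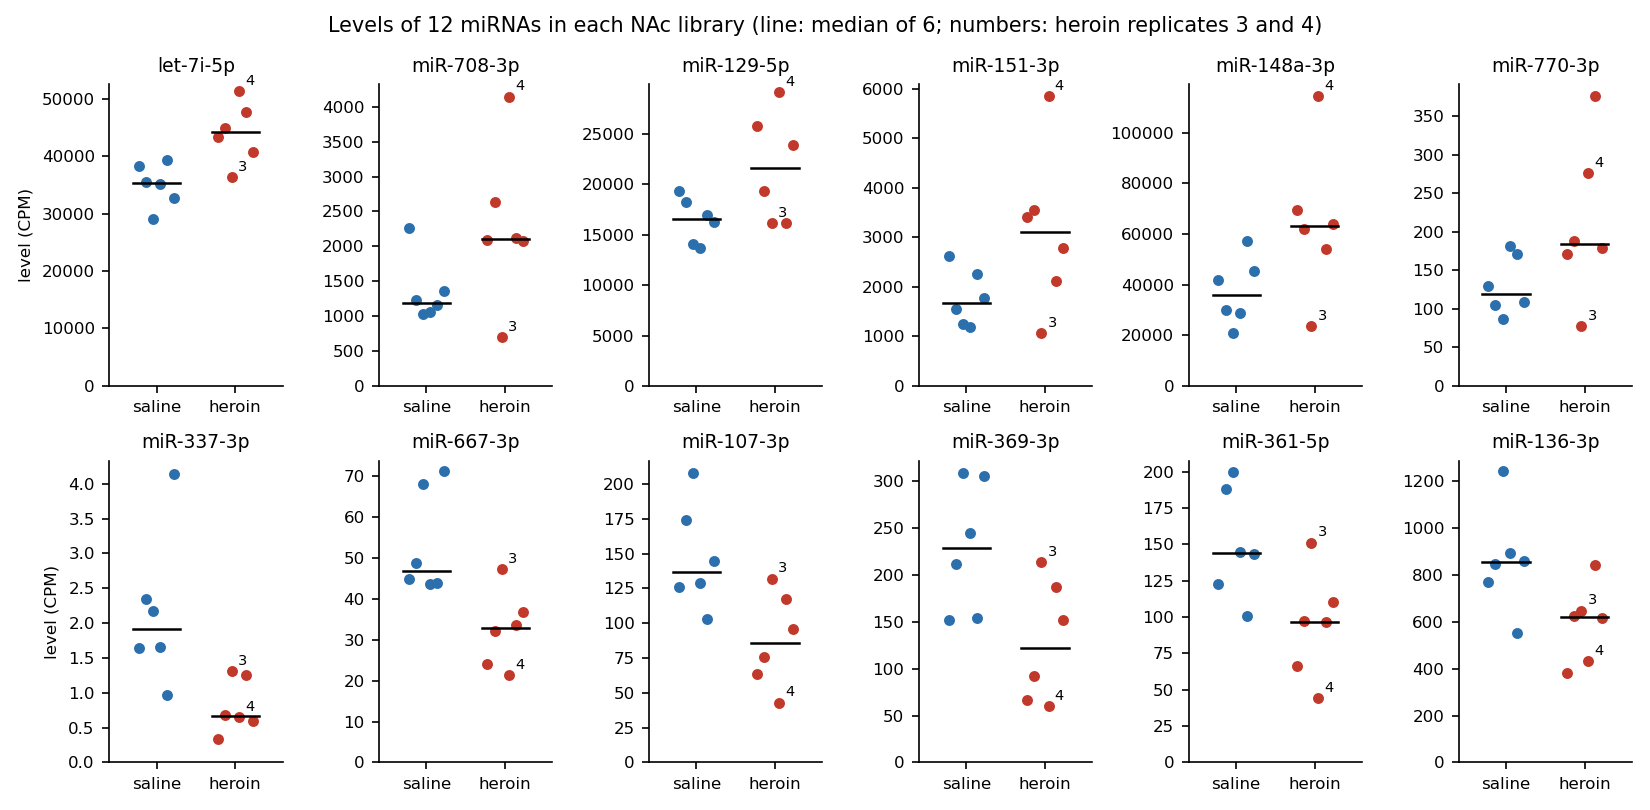
Levels (CPM, linear axes from 0) of 12 miRNAs in each saline (blue) and heroin (red) NAc library, with the median of 6 as a line and heroin replicates 3 and 4 numbered. The top panels hold names with higher medians after heroin and the bottom panels names with lower medians, and in every panel the groups overlap. Heroin replicate 3 lies within or beyond the saline range in most panels, while heroin replicate 4 is at or near the opposite end.

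The ends of the range were often taken by heroin replicates 3 and 4. Heroin replicate 3 was the lowest heroin library in 17 of the 19 names that stood higher, and lay under the saline median in 18 of them. It was the highest heroin library in 8 of the 11 names that stood lower, but lay above the saline median in only 5 of the 11. Heroin replicate 4 was the highest of all 12 libraries in 9 of the 19 names and the lowest of all 12 in 7 of the 11, and heroin replicate 2 was the highest in 8 of the 19. On the second principal component (23.2% of the variance), heroin replicate 4 scored 12.9 and heroin replicate 3 scored -7.08, beside -7.21 to 1.16 in the saline libraries. Without heroin replicate 3, the number at an unadjusted p under 0.05 went to 90 of 486 names (18.5%), with 0 called and a smallest adjusted p of 0.108. Without heroin replicate 4 it went to 6 (smallest adjusted p 0.982), and without the 3 libraries with miR-122-5p to 15, again with 0 called. All 30 names kept their direction in each of these fits. The names were picked from the same libraries that these fits share, so the kept directions are not an independent check. Heroin replicate 3 had 23.8 M counts, the second-deepest NAc library, and heroin replicate 4 had 12.3 M.

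The precision of the comparison differed with abundance. The median SE of the log2 fold change was 0.21 for the 182 names with a mean of at least 100 CPM and 0.34 for the 156 names under 10 CPM. For 329 of the 473 annotated names tested (69.6%), the 95% interval lay inside 1 log2 unit on either side of 0. The fold change of miR-9a-5p was bounded most tightly, between -0.22 and 0.21 on the log2 scale (estimate -0.01), at 113189, 129592 and 168253 CPM after heroin and 126255, 154294 and 178902 CPM after saline. The other 233 annotated names were below the filter on low counts and together held 0.00643% of the NAc counts and were not tested. Among them miR-6321, named after its values were seen, held 28.4% of those counts, with a mean of 31.8 CPM after heroin (highest library 146 CPM) and 17.6 CPM after saline (highest library 53.7 CPM). Across 407 names with a sequence, the correlation of the log2 fold change (a description over names of the same libraries) was 0.08 with the GC content and -0.01 with the length, and 0.21 with the log2 of the mean level. The median log2 fold change was -0.04 over 180 names from 5p arms and -0.11 over 189 from 3p arms.

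**Figure D3:**
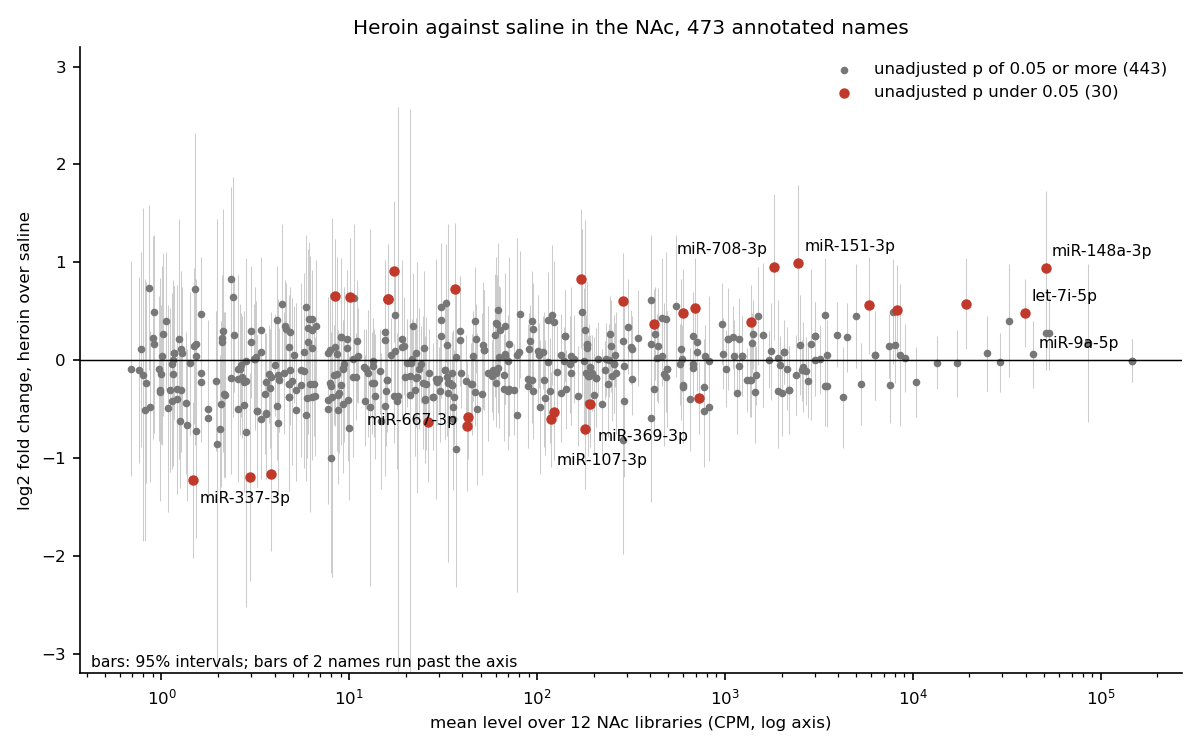
Log2 fold change of heroin over saline against the mean level (CPM, log axis) for the 473 annotated names tested in the NAc, with 95% intervals as bars (those of 2 names run past the axis). The 30 names with an unadjusted p under 0.05 (red) lie between -1.22 and 0.99. None of them passed the adjusted threshold.

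The names were then read by what they are known for. Over all 480 names tested, 208 log2 fold changes were above 0, with a median of -0.07. When libraries were scaled by their totals alone, the median became -0.22, a shift of -0.15, and the names at an unadjusted p under 0.05 then split into 7 higher and 20 lower in place of 19 and 11. The list medians that follow use TMM factors. With library size alone every list median was lower, and those of let-7, miR-148 with miR-152, oligodendrocyte, leukocyte and striated muscle names went below 0. No list held a called name. With each library left out in turn, 6 of the 21 list medians kept their sign in every fit: those of the neuron-enriched, activity, opioid, miR-103 and miR-107, astrocyte, and choroid plexus lists. All 6 were below 0. The median of all 480 names also stayed below 0 in these fits, at -0.082 to -0.017, so a kept sign does not set a list apart from the other names. The neuron-enriched median ran from -0.135 to -0.005 and that of the activity list from -0.179 to -0.004.

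Of the 22 tested miRNAs linked to opioids or drug reward in earlier work, 7 had values above 0 and 15 below, and the median log2 fold change was -0.29. miR-23b-3p, reported to act on the mu opioid receptor under morphine, was at 289, 572 and 1024 CPM after heroin and 563, 968 and 1366 CPM after saline (-0.52 ± 0.27). In 5 of 6 heroin libraries it lay below the saline median. miR-365-3p, which targets beta-arrestin in a rat model of morphine tolerance, was at 6.67 to 20.2 CPM against 12.1 to 36.2 CPM (-0.62 ± 0.33). miR-218a-5p, reported to lower heroin seeking in rats when raised in the NAc, went the other way, at 3459, 5809 and 7092 CPM against 2539.7, 4356 and 5879 CPM (0.45 ± 0.25). The list shares miR-107-3p, miR-103-3p and miR-16-5p with a list of miR-103, miR-107, miR-15 and miR-16 names. That list joins different seeds, GCAGCAU for miR-103-3p and miR-107-3p and AGCAGCA for miR-16-5p. All 7 of its tested members had values below 0 (median -0.26). There miR-103-3p stood at 4565 to 10453 CPM against 7174 to 9889 CPM (-0.25 ± 0.18) and miR-16-5p at 50.7 to 167 CPM against 90.2 to 199.9 CPM (-0.34 ± 0.23).

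Among miRNAs induced by neuronal activity or acting at synapses, 4 of 10 tested had values above 0 (median -0.13). The CREB-responsive neighbours miR-132-3p and miR-212-3p stood at 826, 1099 and 1928 CPM against 889, 1617 and 2481 CPM (-0.32 ± 0.24), and at 43.1, 67.7 and 160.3 CPM against 58.4, 126 and 207 CPM (-0.48 ± 0.32). miR-138-5p, which limits dendritic spine size in rat neurons, had a log2 fold change of -0.43 ± 0.26, and miR-191a-5p of -0.34 ± 0.21. The values of these 4 names lay below the saline median in 5 of 6 heroin libraries each. Of the 4 members above 0, miR-134-5p had the highest log2 fold change, 0.43 ± 0.29. Of 14 neuron-enriched names, 6 were above 0 (median -0.07), among them miR-128-3p at 0.40 ± 0.27, while miR-124-3p was at -0.27 ± 0.23. Of the miRNAs hosted by Htr2c, a gene for a serotonin receptor, 3 were above and 3 below 0 (median -0.06), with miR-1912-3p at -0.64 ± 0.34 and miR-764-3p at -0.49 ± 0.49, both at low levels.

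In the lists that mark other cell types, the medians were -0.21 for 9 astrocyte names, 0.05 for 5 oligodendrocyte names, 0.06 for 9 leukocyte and microglia names and 0.22 for 4 red cell names. The red cell median was 0.0012 without the 3 libraries with miR-122-5p and -0.013 without heroin replicate 1. Astrocyte miR-23a-3p had a log2 fold change of -0.59 ± 0.40 and miR-125b-5p of -0.27 ± 0.19. Of the 5 oligodendrocyte names 3 were above 0. There miR-219a-5p, at under 30 CPM, had a log2 fold change of -0.47 ± 0.34, and the abundant miR-219a-2-3p one of 0.08 ± 0.15 (-0.08 with library size alone). Of the 9 leukocyte and microglia names 7 were above 0, with miR-146b-5p at 0.23 ± 0.15 and miR-223-3p at 0.16 ± 0.42. In the same list miR-142-5p was at -0.41 ± 0.22, and every heroin library was under the median of saline. The red cell miRNAs summed to 93.3 to 165 CPM after heroin and 80.2 to 179 CPM after saline. Values were above 0 in 3 of these 4 names. The log2 fold changes were 0.41 ± 0.37 for miR-451-5p and 0.32 ± 0.22 for miR-486. The remaining red cell name below 0, miR-144-5p, had a log2 fold change of -0.30 ± 0.39. The myeloid miR-223-3p was near the detection limit, at 0.407 to 1.65 CPM against 0.242 to 1.33 CPM. Vascular names had a median of -0.19 over 9, which was -0.03 without heroin replicate 3 and 0.06 without saline replicate 7. Their members included smooth muscle miR-143-3p at 0.50 ± 0.25, the endothelial miR-126a-3p at 0.26 ± 0.16 and miR-199a-3p at -0.38 ± 0.23. None of these sums separated the groups.

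The lowest median was that of choroid plexus and ciliated ependyma, -0.56 over 6 tested names, of which 4 were below 0. It was -0.96 without heroin replicate 3 and -0.29 without saline replicate 11. Its lowest values were those of the miR-34b/c locus, whose products are abundant in ciliated cells and also present in neurons. miR-34c-5p was at 60.8, 144 and 622 CPM after heroin and 98.9, 375 and 628 CPM after saline (-0.81 ± 0.55), and miR-34b-3p at 2.03, 4.17 and 11.1 CPM against 2.03, 9.26 and 25.7 CPM (-1.0 ± 0.55). miR-204-3p, of the choroid plexus, went the other way at 0.83 ± 0.44, so the members stood on both sides of 0. Heroin replicate 3, at 622 CPM of miR-34c-5p, lay near the saline maximum, and without it the log2 fold change of miR-34c-5p was -1.56. The list summed to 333 to 934 CPM after heroin and 477 to 1126 CPM after saline. The epithelial list had a median of -0.34, which was 0.11 without the 3 libraries with miR-122-5p and 0.12 without saline replicate 7. Medians were -0.08 for the liver list and 0.06 for striated muscle, and in miR-122-5p the interval ran from -3.28 to 2.57 with the high values in both groups. The families of miR-29 (median -0.13), miR-30 (-0.03), miR-181 (-0.03) and miR-344 (-0.16) lay near the median of all names, with miR-29c-3p at -0.40 ± 0.30, miR-30b-5p at -0.45 ± 0.26, miR-30a-3p at 0.37 ± 0.19 and miR-344i at -0.34 ± 0.29.

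**Figure D4:**
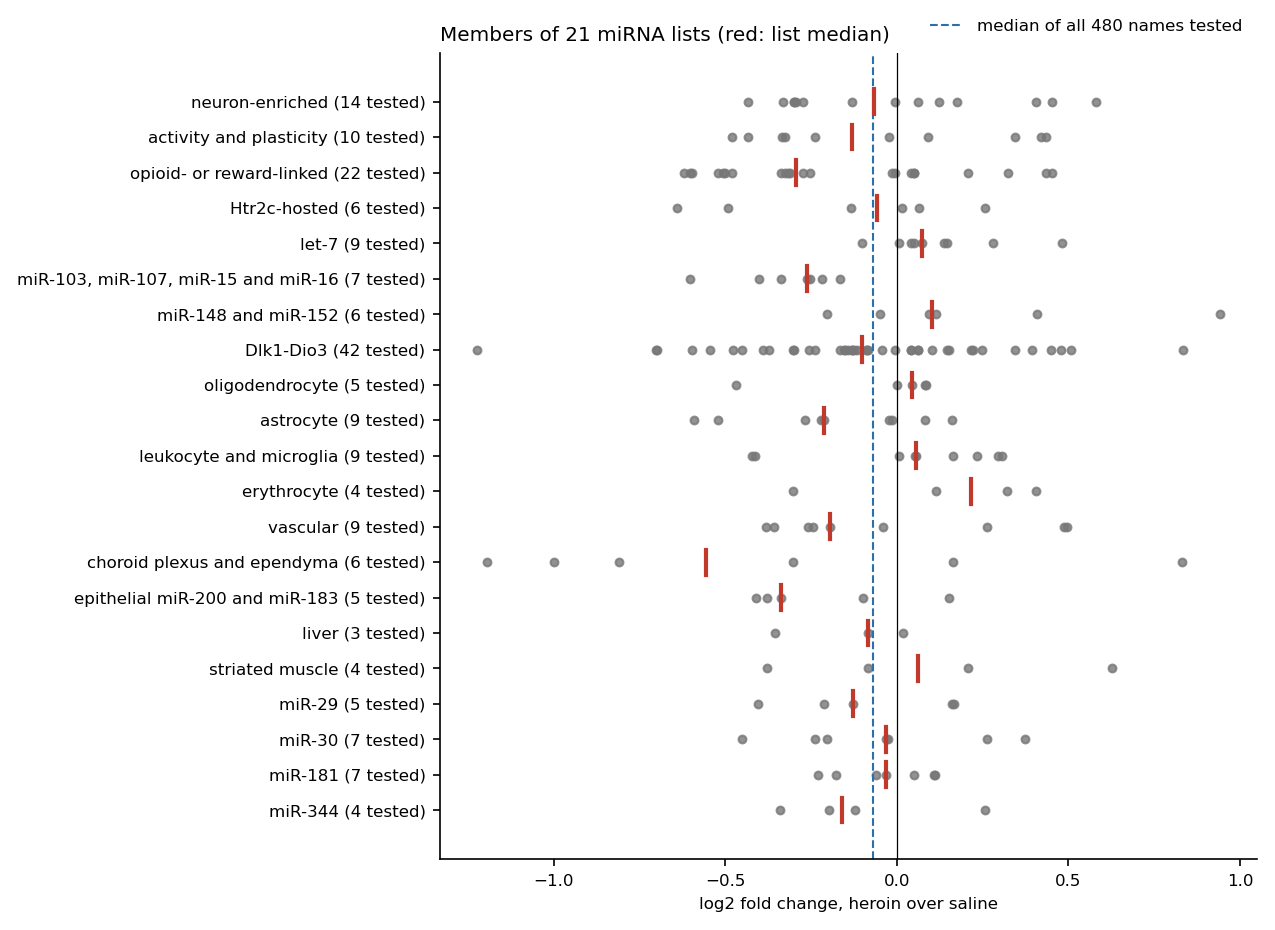
Log2 fold changes of heroin over saline for the tested members of 21 lists (grey points), with each list's median (red) and the median of all 480 names tested (dashed, -0.07). The medians run from -0.56 for choroid plexus and ependyma to 0.22 for the red cell list, and both ends move with single libraries. The members of most lists fall on both sides of 0.

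The Dlk1-Dio3 region, an imprinted cluster whose miRNAs are expressed from the maternal chromosome, held 9 of the 30 names at an unadjusted p under 0.05, in both directions. In GRCr8, 97 names have a locus between the ends of the listed members, chr6:134298129-134579828. Of them 79 were tested after the second names of repeated pairs were left out. The 9 are 11.4% of these 79, where 6.25% of all names tested stood under that p. Of the 79, 32 had values above 0 (40.5%, against 43.3% of all names tested) and 47 below, with a median of -0.09, and together they took 7.70% of the NAc counts. miR-770-3p, miR-370-3p (0.48 ± 0.21) and miR-379-5p (0.51 ± 0.22) stood on the higher side. miR-337-3p, miR-136-3p, miR-667-3p, miR-487b-3p, miR-539-3p and miR-369-3p stood on the lower side. miR-379-5p was at 5307, 9069 and 12075 CPM after heroin and 5141, 7386 and 8854 CPM after saline. Names from the same region thus stood on both sides of 0.

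Summing names with the same seed gave 345 families, of which 0 passed (0%; smallest adjusted p 0.650) and 19 had an unadjusted p under 0.05 (5.51%). The 5 with the smallest p were families with 1 name each in the NAc: those of miR-337-3p (-1.24 ± 0.38), miR-667-3p (-0.58 ± 0.20), miR-6329 (0.94 ± 0.35), miR-708-3p (0.98 ± 0.37) and miR-129-5p (0.60 ± 0.23). The let-7 seed GAGGUAG, summed over 9 names, stood at 142904 ± 10326 CPM after heroin and 131225 ± 14554 CPM after saline (mean ± SD, n = 6), with a log2 fold change of 0.28 ± 0.15. let-7i-5p made up 31.0% ± 4.43 of that family after heroin and 26.8% ± 2.44 after saline, and let-7f-5p 38.7% ± 3.16 and 38.4% ± 3.06. Of 9 let-7 names, 8 had log2 fold changes above 0, but 4 had without heroin replicate 3 or without saline replicate 12, with let-7f-5p at 0.28 ± 0.18. The seed CAGUGCA, shown above for miR-148a-3p, was at 66462 ± 29217 CPM against 39600 ± 12845 CPM (0.94 ± 0.37). miR-148a-3p was 96.4% ± 2.17 and 93.6% ± 3.07 of it, so its relatives miR-148b-3p and miR-152-3p (-0.20 ± 0.21) held the small remainder of the sum. miR-107-3p was 1.33% ± 0.275 of the sum with miR-103-3p after heroin and 1.70% ± 0.382 after saline, and the seed GCAGCAU stood at -0.26 ± 0.18.

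The arms of a hairpin were compared within each library, which removes the library's scaling. Of 139 hairpins with both arms counted, 0 passed in limma on the log2 ratio of 5p to 3p counts (0%; smallest adjusted p 0.349). At an unadjusted p under 0.05 stood 19 (13.7%), with the ratio shifted to 5p after heroin in 9 and to 3p in 10. The antisense pair miR-378a and miR-3557 is among them under both names. The log2 ratio of miR-337 was 7.43 ± 0.63 after heroin and 6.36 ± 0.74 after saline (mean ± SD, n = 6), a difference of 1.07 ± 0.36 (SE). For miR-369 the ratio was 0.30 ± 0.93 against -0.70 ± 0.55 (difference 1.00 ± 0.38), so the arms were close to balance in both groups. For miR-667 it was 0.06 ± 0.58 against -0.69 ± 0.45 (0.75 ± 0.31). miR-770 (-1.18 ± 0.49) and miR-361 (-0.78 ± 0.33) went toward the 3p arm, which was the more abundant arm of both.

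The count of arm ratios called depended on heroin replicate 3. Without it, 13 of 138 hairpins passed (9.42%), where 0 passed with all 12 libraries. Toward 3p stood miR-125a (-1.17, limma adjusted p = 0.0246), miR-708 (-1.60, 0.0246), miR-770 (-1.60, 0.0246), miR-191a (-0.92, 0.0367), miR-151, miR-409a and miR-143. Toward 5p stood miR-379 (1.18, 0.0246), miR-369 (1.28, 0.0328), miR-434 (1.07, 0.0367), miR-330, miR-425 and miR-539. In miR-708, heroin replicate 3 had a log2 ratio of -2.78, above the saline range of -5.22 to -3.28, while the 5 other heroin libraries lay at -6.89 to -4.96. In miR-125a it was at 9.08, above the saline range of 7.95 to 8.66, and the other 5 lay at 6.25 to 7.73, all below it. Leaving out any other NAc library gave 0 calls. A library was left out here because every library was left out in turn, and no label marks heroin replicate 3 as different.

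**Figure D5:**
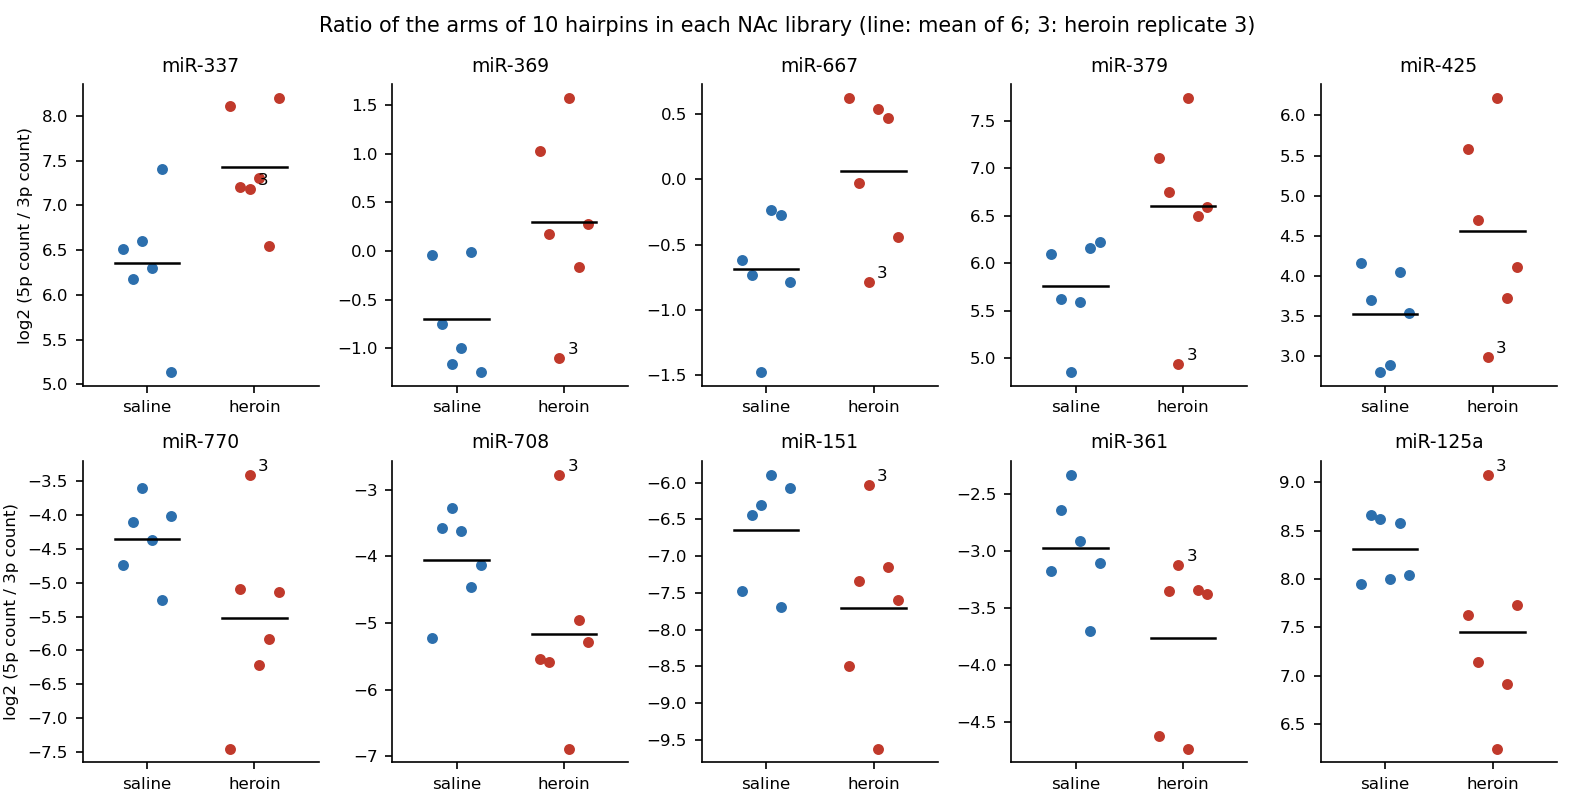
Log2 ratio of 5p to 3p counts of 10 hairpins in each saline (blue) and heroin (red) NAc library, with the mean of 6 as a line and heroin replicate 3 numbered. In miR-708, miR-770 and miR-125a heroin replicate 3 lies above all saline libraries and the other heroin libraries lie lower. In miR-337 it lies among the other heroin libraries.

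Whether these values differ from those of the other brain region was tested as an interaction with the prefrontal cortex (PFC) of the same study. The fit took the 24 libraries as unpaired, because the labels do not say whether a number stands for the same animal in both regions. The SEs and intervals below therefore allow for no pairing, and the fit with a block on the library number is given at the end. Of 506 names, 0 passed in edgeR (0%; smallest adjusted p 0.816) and 19 had an unadjusted p under 0.05 (3.75%); DESeq2 called 0, with 20. The smallest p-values belonged to miR-1224 (1.38 ± 0.53), miR-664-2-5p (1.50 ± 0.59), miR-1912-3p (-1.90 ± 0.80), the red cell miR-486 (1.41 ± 0.60) and miR-342-5p (1.64 ± 0.74). miR-1224 had a log2 fold change of 0.40 ± 0.26 in the NAc and -0.91 ± 0.43 in the PFC. In the PFC libraries alone miR-1912-3p was below the filter on low counts, so it has no PFC value of its own. For let-7i-5p the difference between the regions was 0.41 ± 0.32 (95% interval -0.24 to 1.05), for miR-148a-3p 0.66 ± 0.69 (-0.76 to 2.08) and for miR-107-3p -0.66 ± 0.41 (-1.50 to 0.18). These intervals hold 0 as well as differences larger than the NAc values themselves.

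The names also differed in how far libraries of the same group lay apart. Among those with a mean of at least 100 CPM, the smallest SD of log2 CPM within groups was that of miR-9a-5p, 0.12, followed by miR-127-5p (0.14), let-7d-3p (0.15) and miR-30a-5p (0.17). The largest were those of miR-187-3p (1.26), miR-34c-5p (1.10), miR-7a-5p (0.84), miR-10a-5p (0.82) and miR-23a-3p (0.81). miR-7a-5p, a miRNA of neurons and endocrine cells that was the second of the abundant names, was at 25339.5, 99404 and 115320.0 CPM after heroin and 42062, 89242 and 119338 CPM after saline (log2 fold change 0.18 ± 0.38). miR-10a-5p was at 38.6, 163 and 433 CPM against 123, 147 and 190.4 CPM (0.49 ± 0.40), a spread of heroin libraries on both sides of all saline libraries.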

How the data were processed

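Small RNA libraries of 18 to 40 base inserts were sequenced from 6 samples per group, per the labels. The authors deposited 1 table with read counts per miRNA name and, beside them, TPM values, per the file headers. The TPM equal each count's share of its library, so the deposited counts were tested. Bowtie and the rn6 assembly are named in the submitters' processing notes. How strand and reads with several matches were handled is not given in the sources used. All 72 columns used were matched to libraries by name, and any pair of replicates differed beyond sampling noise (chi-square over its degrees of freedom at least 313).

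Counts were tested with edgeR 4.0.16 (quasi-likelihood F test, TMM normalization, filterByExpr at a minimum count of 10) in R 4.3.3, with Benjamini-Hochberg adjustment at 0.05 over all names tested. Reads of a pair of antisense names cannot be separated. Arm ratios (pseudocount 0.5, mean of each arm at least 10 counts) were tested with limma 3.58.1, and seed sums and the interaction with edgeR. Alternatives were DESeq2 1.42.0, limma-voom, limma on log2(TPM + 1), other scalings and filters, and leaving out each library. Totals were compared by exact permutation tests. The scripts were tested on simulated data. CPM is counts per 1e+06 counts of a library, and intervals do not cover error from PCR.

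The names described are the 12 with the smallest p in each direction, the 10 most abundant, up to 3 members of each of 21 lists, a panel of 15 names, and the 5 leading families, hairpins, interactions and spreads. A few others (miR-148b-3p, miR-219a-2-3p, miR-378a-5p, miR-6321, miR-370-3p, miR-379-5p, miR-653-5p, miR-10b-5p, miR-134-5p, miR-122b) were chosen after their values were seen. The members and lists were chosen with earlier results of these data known.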

Additional observations from a re-analysis of the deposited data

Results flagged for a closer look

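In 190 groups of 6 libraries, 22 held a library far from the other 5 of its group. Chance gives about 1 in 20 for independent groups. These groups reuse the same libraries and hold antisense names, so the 22 cannot be read against that rate. Heroin replicate 2 was the highest heroin library for miR-122-5p (97.0 CPM), miR-200c-3p (15.6 CPM), miR-200a-3p (24.3 CPM), miR-206-3p (38.8 CPM), miR-29b-3p (424 CPM) and the first principal component (16.6). It was the lowest for let-7f-5p (42618 CPM) and its antisense name miR-3596d (41339 CPM). Heroin replicate 3 was the highest for miR-34c-5p (622 CPM), miR-34c-3p (4.80 CPM) and let-7c-5p (10341 CPM), and heroin replicate 1 for miR-182 (78.0 CPM).

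Among saline libraries, replicate 7 was the highest for miR-708-3p (2267 CPM), miR-99b-3p (331 CPM) and miR-126a-3p (4847 CPM), and replicate 9 for miR-874-3p (53.4 CPM). Replicate 12 was the highest for miR-365-3p (36.2 CPM), miR-342-3p (906 CPM) and miR-29b-3p (309 CPM) and the lowest for miR-127-3p (28877 CPM). Replicate 11 was the highest for miR-344b-5p (92.1 CPM), and replicate 10 the lowest for miR-344b-1-3p (49.8 CPM).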

How the results depend on the processing

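Of 1962 recomputed values for 84 named results, 1938 kept their direction and their side of the threshold. The call count for arm ratios ran from 0 to 13 when 1 library was left out, and the 13 came without heroin replicate 3. In those fits the arm ratio difference ran from 0.74 to 1.28 for miR-369 and from -1.60 to -0.79 for miR-770. Direction was lost in 4 log2 fold changes. That of miR-9a-5p, near 0, was 0.034 with DESeq2, 0.034 with RLE factors, 0.026 with no filter, 0.073 with repeated names counted once, 0.050 with annotated names alone and 0.079 with all 36 libraries. It was 0.011 without the 3 libraries with miR-122-5p and ran from -0.047 to 0.033 with 1 library left out. That of miR-122-5p was 0.82 without those 3 libraries and 0.15 without heroin replicates 3 and 4, both chosen after seeing the data, and ran from -3.47 to 0.92 with 1 library left out. That of miR-10a-5p ran from -0.023 to 0.69. That of miR-219a-2-3p was -0.083 with library size alone, -0.083 with limma on log2(TPM + 1) and ran from -0.00017 to 0.16 with 1 library left out. The cause was not tested. Numbers are shared between tissues only, so the replicate block was fitted for the difference between NAc and PFC, where it gave 0 calls, 15 at an unadjusted p under 0.05 and a smallest adjusted p of 0.903. Same-numbered libraries correlated at -0.096 to 0.683, and 9 of 12 correlated best with their own number. Depth limits names under 10 CPM most.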
